A study of Mus musculus with 686 samples.

Results

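The thymus of mice whose spaceflight ended on orbit was described by 28 small RNA libraries out of 686 in the series. The members were the thymus samples of the ISS Terminated (TERM) group, chosen by tissue and group alone and by no measured value. Spaceflight (FL) gave 10 libraries, Habitat Ground Control (HGC) gave 9 and Vivarium Ground Control (VGC) gave 9, each from 1 mouse. All were female BALB/cAnNTac mice. They were young (3 months, 13 libraries) or old (8 months, 15 libraries), with 5 and 5 in FL, 4 and 5 in HGC, and 4 and 5 in VGC. FL mice lived on the International Space Station (ISS). HGC mice lived on the ground in the flight hardware at the same double density, with temperature, humidity and carbon dioxide matched to flight, and VGC mice lived in standard cages with 4 mice each. FL against HGC asks about spaceflight at matched housing, and FL against VGC asks about spaceflight and housing together. The paper reports mold on the food bars of FL and HGC mice. Replaced bars floated free during launch in FL and fell to the cage floor in HGC. TERM mice were killed earlier than planned because of the mold. These food conditions cannot be told apart from spaceflight or housing in the comparisons they enter.

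All TERM mice were anesthetized with ketamine, xylazine and acepromazine and bled 22 to 24 days after launch or at the matching time on the ground. Their thymi stayed in the carcass, which was frozen whole and thawed for dissection. The FL carcasses were frozen on board, floating in air, and the ground carcasses in freezers on Earth. Spaceflight and the way of freezing therefore cannot be told apart in any comparison of FL with HGC or VGC. The remaining 30 thymus libraries (10 per arm) came from Live Animal Return (LAR) mice, which landed alive, and are used here for 1 comparison.

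The thymus is the organ in which T cells mature. Thymocytes, which are immature T cells, make up most of its mass and grow among epithelial and stromal cells, and the organ shrinks with age and with stress while fat takes its place. MicroRNAs (miRNAs) are short RNAs that repress messenger RNAs, mostly through pairing of the seed, bases 2 to 8 of the mature strand. The miR-181 family is abundant in thymocytes and tunes the sensitivity of the T cell receptor. The miR-17 family is made from 3 clusters, miR-17-92, miR-106a-363 and miR-106b-25, and acts on growth and survival of lymphocytes.

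The sequences below are the mature strands of the miRNAs that the results turn on, from RefSeq (GRCm38.p6), written 5′ to 3′ with the seed in capitals. RefSeq held a mature strand for 658 of the 818 miRNAs tested. The members of the miR-181 family shown here share the seed ACAUUCA and are encoded on chromosomes 1 and 2.
mmu-miR-181a-5p: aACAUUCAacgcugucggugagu
mmu-miR-181b-5p: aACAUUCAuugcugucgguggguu

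Of the miR-17 family, 6 members share the seed AAAGUGC. miR-17-5p and miR-20a-5p are encoded on chromosome 14, miR-20b-5p and miR-106a-5p on chromosome X, and miR-93-5p and miR-106b-5p on chromosome 5. They differ in few bases outside the seed, so reads with errors or trimmed ends can be shared among them.
mmu-miR-17-5p: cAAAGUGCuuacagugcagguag
mmu-miR-20a-5p: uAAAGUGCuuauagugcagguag
mmu-miR-20b-5p: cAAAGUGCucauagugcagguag
mmu-miR-106a-5p: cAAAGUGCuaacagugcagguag
mmu-miR-93-5p: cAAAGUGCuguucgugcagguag
mmu-miR-106b-5p: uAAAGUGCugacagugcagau

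The same clusters hold a pair of miR-18 members with the seed AAGGUGC, of which miR-18a-5p lies on chromosome 14 and miR-18b-5p on chromosome X. They are shown because they differed between ages.
mmu-miR-18a-5p: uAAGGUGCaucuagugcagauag
mmu-miR-18b-5p: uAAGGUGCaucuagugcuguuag

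A last set also differed between ages. miR-296-3p and miR-298-5p come from chromosome 2, miR-293-3p and miR-295-3p from chromosome 7, miR-378c from chromosome 14 and miR-378d from chromosome 10. None of these 6 shares a seed with another.
mmu-miR-296-3p: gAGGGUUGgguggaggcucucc
mmu-miR-298-5p: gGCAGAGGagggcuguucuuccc
mmu-miR-293-3p: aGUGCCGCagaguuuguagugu
mmu-miR-295-3p: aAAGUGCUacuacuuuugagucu
mmu-miR-378c: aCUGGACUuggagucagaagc
mmu-miR-378d: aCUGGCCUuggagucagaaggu

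Total counts over 7 RNA classes ranged from 29.0 to 126 M per library (median 74.0 M), and miRNA counts from 2.87 to 8.35 M (median 4.98 M). Between 448 and 764 miRNAs had at least 5 counts in a library (median 630). The study lists tissue mix-ups in some sequencing pools, so every library was set against the median miRNA profile of each of the 13 tissues before any comparison. Across all TERM tissues, 71 of 338 libraries were closest to another tissue than their label. The paper reports that the adipose tissues cluster together, so this is not a count of mix-ups.

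In the thymus, 4 of 28 libraries had the miRNA profile of another organ. The library labelled HGC 11 correlated best with heart (Pearson's r across miRNAs 0.923, against -0.342 with thymus) and so did the library labelled VGC 11 (r 0.946). The library labelled VGC 5 correlated best with kidney (r 0.954) and the library labelled HGC 14 with lung (r 0.902, against 0.037 with thymus). The library labelled FL 1 was closest to thymus, but only at r 0.217, next to 0.152 for kidney. The other 23 had r between 0.735 and 0.976 with the thymus profile.

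Single marker miRNAs were set beside these profiles. miR-208a-3p and miR-499-5p, made from introns of cardiac myosin genes, stood at 792 and 1441 counts per 1 M miRNA counts (CPM) in the library labelled HGC 11, and at 702 and 1410 CPM in the library labelled VGC 11. In the libraries with a clear thymus profile miR-208a-3p was at most 131 CPM. The library labelled VGC 5 held 29441 CPM of miR-192-5p, an epithelial miRNA of kidney and gut, and the library labelled HGC 14 held 1241 CPM of miR-34b-3p, a miRNA of ciliated cells, but its miR-449a-5p, another such miRNA, was 162 CPM, below the 209 to 1354 CPM of the 23 libraries with a clear thymus profile. The library labelled FL 1 held 3522 CPM of miR-206-3p, a skeletal muscle miRNA, and 62238 CPM of miR-143-3p, a smooth muscle and stromal miRNA.

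The comparisons of arms were therefore made on 3 sets. The first holds all 28 libraries as labelled. The second leaves out the pools ISS2-5, ISS19-22 and ISS39-41, which keeps 20 libraries (7 FL, 7 HGC, 6 VGC) but still holds the library labelled HGC 14. The third holds the 23 libraries with r of at least 0.5 with the thymus profile (9 FL, 7 HGC, 7 VGC) and was added after the data were seen. Its selection used the miRNA profile as a whole and no arm.

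The 2 marker miRNAs of the thymus were also set beside the labels. Both are part of the miRNA profile behind r, which used the same counts, so they are not a separate check. Over TERM tissues, the thymus had the highest median of both miR-181a-5p, at 238505 CPM against 50090 CPM in brain as the next tissue, and miR-20b-5p, at 2621 CPM against 333 CPM in spleen. miR-181a-5p held 27.4% ± 6.97 (SD, n = 23) of all miRNA counts in the thymus-profile libraries. In FL it ranged from 90547 CPM (library 1) through the 9 others at 217777 to 361169 CPM. In HGC it was 13656 and 56800 CPM in the libraries labelled 11 and 14 and 171101 to 320112 CPM in the other 7. In VGC it was 21808 and 9894 CPM in the libraries labelled 5 and 11 and 179402 to 452671 CPM in the other 7. The arms overlapped once those libraries were set aside.

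miR-20b-5p separated the doubtful libraries further. It stood at 581 CPM in the library labelled FL 1, at 3.8 and 25.1 CPM in those labelled HGC 11 and 14, and at 174 and 3.08 CPM in those labelled VGC 5 and 11. The 23 thymus-profile libraries lay between 1766 and 5025 CPM. Their medians were 3949 CPM in FL (range 2681 to 4283), 2347 CPM in HGC (1766 to 5025) and 2510 CPM in VGC (2021 to 4963). Most FL libraries were above most ground libraries, and the highest library of each ground arm was above all FL libraries.

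**Figure D1:**
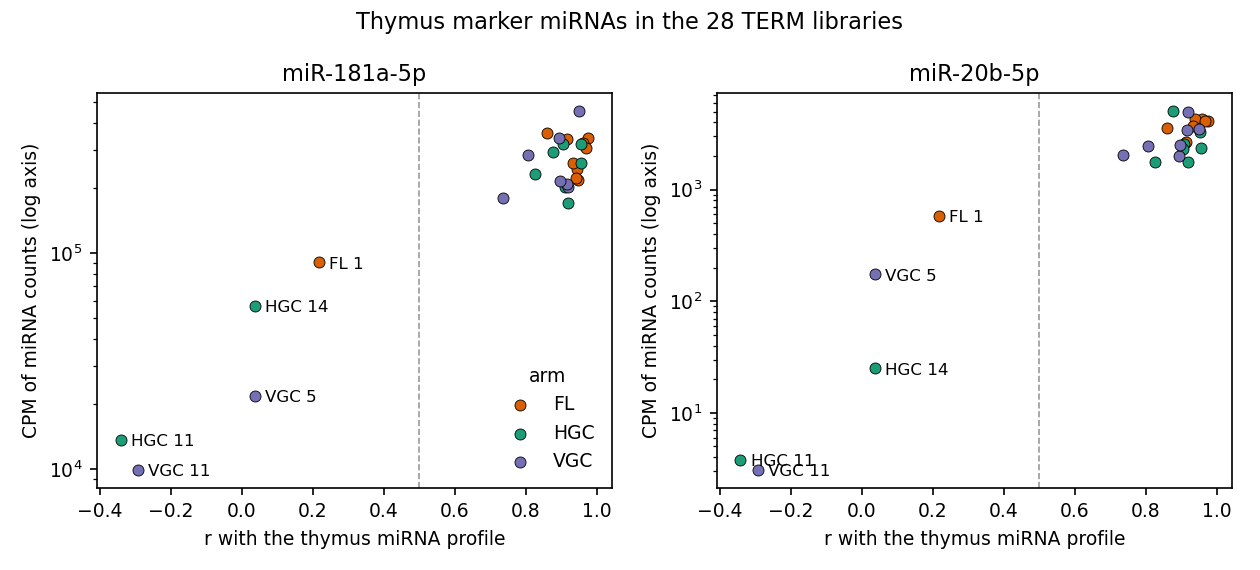
miR-181a-5p and miR-20b-5p in the 28 TERM thymus libraries, in CPM of miRNA counts on a log axis, against the correlation r of each library's miRNA profile with the thymus profile. The dashed line marks r = 0.5, and the 5 libraries left of it (FL 1, HGC 11, HGC 14, VGC 5, VGC 11) have the lowest miR-20b-5p, from 3.08 to 581 CPM.

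Over all 28 libraries the most abundant miRNAs after miR-181a-5p were miR-26a-5p, let-7c-5p, let-7a-5p, miR-378a-3p and miR-181b-5p. In the thymus-profile libraries let-7a-5p (4.36%), miR-26a-5p (4.34%), let-7c-5p (4.06%) and miR-181b-5p (3.93%) lay close together by mean share, and miR-16-5p (3.16%) stood before miR-378a-3p (3.04%). The 10 most abundant over all libraries held 58.2% ± 5.19 (SD, n = 23) of miRNA counts in the thymus-profile libraries. Because the samples are bulk tissue, fewer cells of a type and less RNA per cell cannot be told apart in any value below.

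Traces of neighbouring or other organs also varied among the thymus-profile libraries. miR-122-5p, which marks hepatocytes, was 48800 CPM in HGC 16 and 11249 CPM in VGC 14, against 33.9 to 2812 CPM in the other 26 of the 28 libraries. The summed level of 7 muscle and heart miRNAs ranged from 1812 to 18667 CPM in FL (median 2921), from 611 to 16024 CPM in HGC (median 2059) and from 1887 to 39374 CPM in VGC (median 7501). The summed level of 3 pancreas miRNAs (miR-216a-5p, miR-216b-5p and miR-217-5p) was 0.976 to 10.4 CPM in FL, but reached 264 CPM in HGC 3 and 444 CPM in VGC 14. The part of these traces in the arm comparisons was not tested.

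The first question was whether the balance of RNA classes differed between arms. It did not pass the test for any class. Fragments of tRNA were the largest class, at 38.1% ± 13.8 of counts in FL (SD, n = 10), 40.6% ± 18.1 in HGC (n = 9) and 34.5% ± 13.7 in VGC (n = 9). The miRNA share was 8.25% ± 2.68 in FL, 6.96% ± 4.15 in HGC and 6.80% ± 3.88 in VGC. The smallest p was that of rRNA fragments, at 10.8% ± 2.61 in FL against 16.7% ± 7.80 in VGC, a difference of -5.87 points (exact two-sided permutation test, p = 0.0396, adjusted over the 7 classes 0.277). The rRNA shares overlapped, with FL between 5.98% and 16.0% and VGC between 5.84% and 27.6%.

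Without the listed pools, the miRNA share was 7.64% in FL (n = 7) against 5.28% in HGC (n = 7) and 4.65% in VGC (n = 6), with exact permutation p of 0.035 and 0.0286 and adjusted p of 0.18 and 0.20. The tRNA share was then 32.8% in FL against 47.0% in HGC, a difference of -14.3 points (exact permutation p = 0.0769, adjusted 0.179), where it was -2.57 points on all libraries. When 1 of all libraries was left out, the latter ran from -5.50 to 1.45 points. The tRNA difference among the thymus-profile libraries was -3.42 points (36.0% against 39.4%, exact permutation p = 0.603), and the miRNA share was 7.87% in FL against 5.90% in HGC and 5.08% in VGC (exact permutation p = 0.0978 and 0.0327, adjusted 0.685 and 0.229). The highest miRNA shares on the ground, 17.3%, 14.5% and 11.1%, lay in the libraries labelled HGC 11, VGC 11 and VGC 5, which had another organ's profile.

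**Figure D2:**
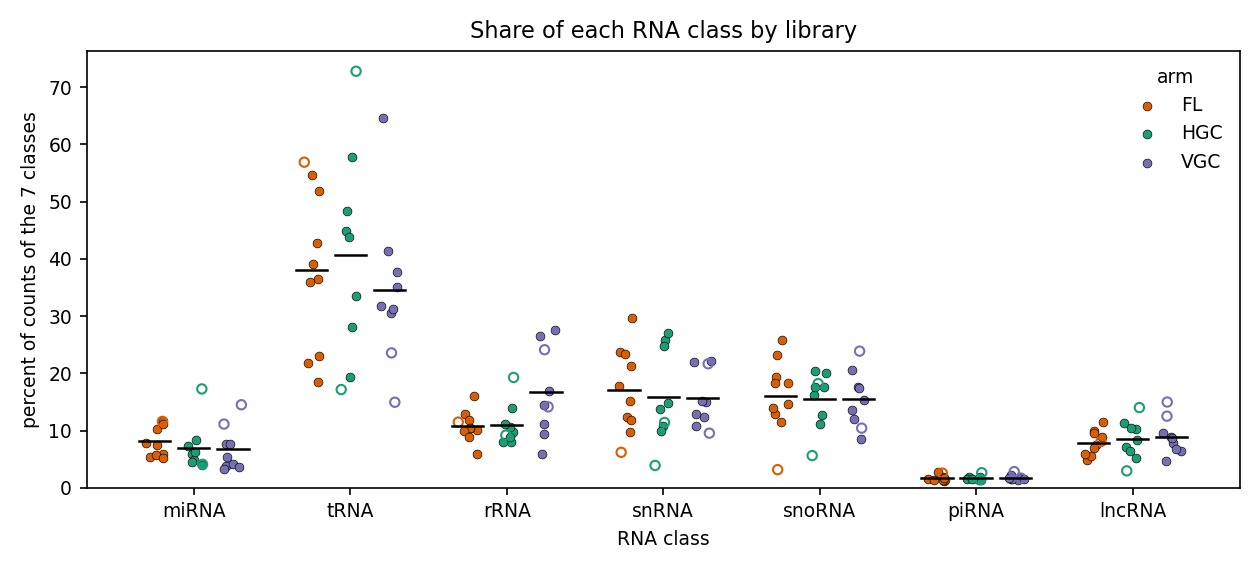
Percent of all counts on each of the 7 RNA classes in the 28 libraries, by arm. Points are libraries, open circles are the libraries with r under 0.5 with the thymus profile, and lines are arm means. FL, HGC and VGC overlapped in every class.

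For miRNAs, no arm comparison passed the edgeR test on any of the 3 sets. With edgeR, 0 of 818 miRNAs (percent called 0) had an adjusted p under 0.05 in FL against HGC, in FL against VGC or in HGC against VGC. At an unadjusted p under 0.05, 95, 109 and 35 miRNAs stood apart in these comparisons. DESeq2 called 0, 3 and 2. Its 3 calls in FL against VGC were miR-129-1-3p (log2 fold change -1.69, adjusted p = 0.00785), miR-190a-3p and miR-499-5p, the last a heart miRNA that was high in the library labelled VGC 11. edgeR also called 0 of 786 among the thymus-profile libraries, with 57, 92 and 83 miRNAs at an unadjusted p under 0.05.

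Of the miRNAs with the smallest p in FL against HGC, some rested on single libraries. miR-122-5p had a log2 fold change of -4.39 ± 1.23 (SE, adjusted p = 0.338), which rests on HGC 16. miR-34b-3p had -2.43 ± 0.777, and -0.03 among the thymus-profile libraries, since it was high in the library labelled HGC 14. miR-126a-3p, an endothelial miRNA, had -1.59 ± 0.529 on all libraries and -0.31 among the thymus-profile libraries. miR-3065-3p kept its size, at 2.04 ± 0.696 on all and 2.03 ± 0.637 among the thymus-profile libraries (adjusted p = 0.338 and 0.44).

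In FL against VGC, miR-129-1-3p had the smallest p, with a log2 fold change of -1.76 ± 0.40 (adjusted p = 0.102) and -1.28 ± 0.317 among the thymus-profile libraries (adjusted p = 0.152). Against HGC the same miRNA was at -0.97 ± 0.397 and -0.93 ± 0.319. miR-551b-3p was next at -3.96 ± 0.956 against VGC, and at -1.21 ± 0.675 among the thymus-profile libraries. Further down were miR-194-5p, miR-10a-5p, miR-133a-3p and miR-208a-5p, miRNAs of kidney and muscle that were high in the libraries labelled VGC 5 and VGC 11.

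miRNAs of the miR-17 family had positive fold changes in FL without passing the test. The 6 members with the seed AAAGUGC had a median log2 fold change of 0.57 against HGC and 0.66 against VGC, where the median of all tested miRNAs was -0.11 and -0.13. With the thymus-profile libraries alone the medians were 0.43 and 0.47, beside -0.04 and -0.06 for all tested miRNAs. miR-20b-5p had 0.80 ± 0.715 against HGC (adjusted p = 0.732), and 0.57 ± 0.212 among the thymus-profile libraries (unadjusted p = 0.012, adjusted p = 0.44). Against VGC it had 0.70 ± 0.714, and 0.47 ± 0.212 among the thymus-profile libraries (adjusted p = 0.373). The standard error shrank by over 3 times once the 5 low-r libraries, all low in miR-20b-5p, were set aside. The reason was not tested.

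The other family members were similar in size. Among the thymus-profile libraries miR-106a-5p had 0.59 ± 0.229 against HGC and 0.41 ± 0.228 against VGC, and miR-17-5p had 0.47 ± 0.217 and 0.47 ± 0.217. miR-20a-5p had 0.39 ± 0.253 against HGC and 0.70 ± 0.255 against VGC (adjusted p = 0.713 and 0.265). Of the X-linked cluster miR-106a-363, 6 of 6 members had a positive fold change in both comparisons on all libraries, and 5 of 6 among the thymus-profile libraries. Of the cluster miR-17-92, 10 of 10 were positive against HGC and 8 of 10 against VGC, with medians of 0.30 and 0.36. Of the cluster miR-106b-25, 4 of 6 and 3 of 6 were positive, with medians of 0.27 and 0.02. The members of a cluster are cut from 1 transcript and are not independent.

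Thymocyte and lymphoid miRNAs also had small positive values. Of 9, 7 were positive against HGC and 9 against VGC, with medians of 0.30 and 0.41 on all libraries and 0.18 and 0.25 among the thymus-profile libraries. miR-181a-5p itself had 0.28 ± 0.271 and 0.12 ± 0.270 there (adjusted p = 0.842 and 0.898). miR-155-5p, induced by lymphocyte activation, had 0.07 ± 0.221 against HGC and 0.72 ± 0.224 against VGC (adjusted p = 0.925 and 0.18). miR-150-5p, a miRNA of mature lymphocytes, had -0.40 ± 0.30 and 0.14 ± 0.302. miR-142a-3p, found in all blood cells, had 0.18 ± 0.297 and 0.69 ± 0.301.

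Other gene groups gave no call with edgeR either, and several changed sign between sets. For the muscle and heart miRNAs the median was -3.12 in both comparisons on all libraries, but 0.41 against HGC and -1.28 against VGC among the thymus-profile libraries, since the library labelled HGC 11 reached a summed level of 300604 CPM and that labelled VGC 11 of 382327 CPM. The erythroid miRNAs, such as miR-451a and miR-144-3p, went from -0.73 to 0.30 against HGC and from -1.11 to 0.00 against VGC. The let-7 family, which marks differentiated cells, had 0.17 on all libraries and -0.28 among the thymus-profile libraries against HGC, and 0.52 and 0.17 against VGC. A group of 6 miRNAs tied to thymic stress and shrinkage, among them miR-205-5p, miR-185-5p and miR-29a-3p, had medians of -0.03 and -0.17 on all libraries and 0.14 and -0.02 among the thymus-profile libraries.

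Groups with a median below 0 in both comparisons, on all libraries and among the thymus-profile libraries, were the Dlk1-Dio3 cluster, the myeloid miRNA miR-223 and the brain, liver and pancreas miRNAs. The Dlk1-Dio3 cluster, an imprinted group expressed in stem and stromal cells, had 3 of 15 positive members against each ground arm, with medians of -0.75 and -0.65. Among the thymus-profile libraries the medians were -0.52 and -0.80, and 7 of 15 members had an unadjusted p under 0.05 against VGC, as 92 of all 786 miRNAs did, led by miR-127-3p at -0.98 ± 0.289 (adjusted p = 0.18). The 3 pancreas miRNAs had medians of -3.34 and -4.25 there, with adjusted p from 0.152 to 0.472, and rest on HGC 3 and VGC 14. The 6 brain miRNAs had medians of -0.20 and -0.80 on all libraries and -1.64 and -1.42 among the thymus-profile libraries, with the highest summed levels in HGC 1 (4006 CPM) and VGC 16 (4913 CPM). The 2 liver miRNAs had -3.73 and -2.03, and -4.14 and -2.15. The stromal and vascular miRNAs had medians of -0.42 and -0.46 on all libraries and 0.00 and -0.12 among the thymus-profile libraries. The fat miRNAs had medians of 0.64 and -0.41 on all libraries, the miR-34 family -1.02 and 0.58, the miR-15/16 family 0.01 and -0.10, and the myeloid miRNA miR-223 -0.23 and -0.05. The same groups had 0.43 and -0.18, -0.01 and 0.60, 0.11 and -0.08, and -0.15 and -0.15 among the thymus-profile libraries, in the same order. The epithelial miRNAs had medians of 0.11 and 0.06, and -0.15 and 0.04 among the thymus-profile libraries. miR-210-3p, which hypoxia induces, had 0.04 and -0.33, and 0.41 ± 0.200 and 0.03 ± 0.199 among the thymus-profile libraries.

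The study calls a miRNA deregulated by size alone, when the log2 ratio of geometric medians exceeds 1 and Cohen's d exceeds 0.5, both in either direction, here on counts per 1 M counts of the 7 classes (rpmm, pseudocount 1). This rule uses no p. For a separate label, significantly deregulated, the study asks for the same fold and an adjusted p under 0.05 (Wilcoxon rank-sum test). The rule of size was met by 9 of 818 miRNAs (1.1%) in FL against HGC. It was met by 29 (3.55%) in FL against VGC and by 6 (0.733%) in HGC against VGC. All 9 and all 29 were higher in FL. The 9 were miR-466o-5p, miR-20a-5p, miR-106b-5p, miR-25-3p, miR-19b-3p, miR-378a-3p, miR-106a-5p, miR-20b-5p and miR-193b-3p, of which 6 belong to the 3 miR-17 clusters. miR-20b-5p had a log2 ratio of 1.22 (d = 1.05) against HGC and 1.25 (d = 1.10) against VGC, and miR-181a-5p of 1.17 (d = 1.24) against VGC.

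The direction of these counts turned with the scale. Per 1 M miRNA counts in place of all counts, the rule was met by 5 miRNAs in FL against HGC (2 higher, 3 lower) and by 26 in FL against VGC (3 higher, 23 lower). The scale of all counts contains the miRNA share, whose mean was highest in FL, and moves every miRNA of a library together. The rule was met by 24 and 34 miRNAs without the listed pools and by 6 and 26 among the thymus-profile libraries, where HGC against VGC also gave 26 (3.31%), and 12 without the listed pools. Leaving out 1 of the 28 libraries moved the count of 9 to between 2 (without HGC 14) and 21 (without FL 4 or FL 14), that of 29 to between 15 (without FL 2) and 41 (without VGC 2), and that of 6 to between 4 (without HGC 3) and 16 (without HGC 11). Among the thymus-profile libraries, miR-20b-5p met it against HGC at 1.10, and miR-106a-5p in both comparisons at 1.08 and 1.14.

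The clearest difference between FL and the ground arms lay in fragments of a long non-coding RNA. Of 3285 lncRNA transcripts tested, edgeR called 2 (0.0609%) in FL against HGC and 2 (0.0609%) in FL against VGC, and they were the same 2 transcripts of AI480526, ENSMUST00000160321.7 and ENSMUST00000160255.7, both higher in FL. DESeq2 called 4 and 8. In HGC against VGC edgeR called 0, with 80 at an unadjusted p under 0.05 and 0 by DESeq2. The 2 comparisons share the FL libraries.

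AI480526 is annotated in GENCODE on chromosome 5, minus strand, as a long intergenic RNA with 7 transcripts that share exons, and genes of the opposite strand overlap it. Whether counting used strand is not given in the sources used here, so reads of the overlapping genes may be counted with it. The transcripts share reads, so the 2 calls are not independent. No function is ascribed to it here. Counts were low: ENSMUST00000160321.7 had 21 to 79 counts in FL libraries (median 35), 5 to 21 in HGC (median 14) and 9 to 23 in VGC (median 15).

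On the normalized scale (counts per 1 M lncRNA counts after TMM), ENSMUST00000160321.7 was at 14.96, 4.61, 8.04, 6.36, 9.03, 9.06, 6.81, 6.29, 5.46 and 3.30 in FL 1, 2, 3, 4, 5, 11, 12, 13, 14 and 16. It was at 2.63, 2.45, 2.68, 2.88, 2.70, 1.96, 1.28, 2.05 and 1.90 in HGC 1, 2, 3, 5, 11, 12, 13, 14 and 16. It was at 2.20, 4.11, 3.54, 4.04, 2.45, 1.42, 2.60, 1.41 and 2.25 in VGC 1, 2, 3, 5, 11, 12, 13, 14 and 16. No HGC library reached the lowest FL library, and in VGC the libraries 2, 3 and 5 exceeded FL 16 alone. The highest FL value was that of library 1, whose miRNA profile was weakly thymic.

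The mean of ENSMUST00000160321.7 was 7.39 ± 3.23 in FL (SD, n = 10), 2.28 ± 0.517 in HGC (n = 9) and 2.67 ± 1.02 in VGC (n = 9). Its log2 fold change was 1.69 ± 0.289 against HGC (SE, adjusted p = 0.00575) and 1.49 ± 0.285 against VGC (adjusted p = 0.0322). ENSMUST00000160255.7 had a mean of 9.36 ± 3.21 in FL, 3.38 ± 0.932 in HGC and 3.66 ± 1.40 in VGC. Its log2 fold change was 1.47 ± 0.274 against HGC (adjusted p = 0.0119) and 1.36 ± 0.272 against VGC (adjusted p = 0.0322). Between HGC and VGC they differed by -0.20 and -0.11 (adjusted p = 0.982 for both).

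**Figure D3:**
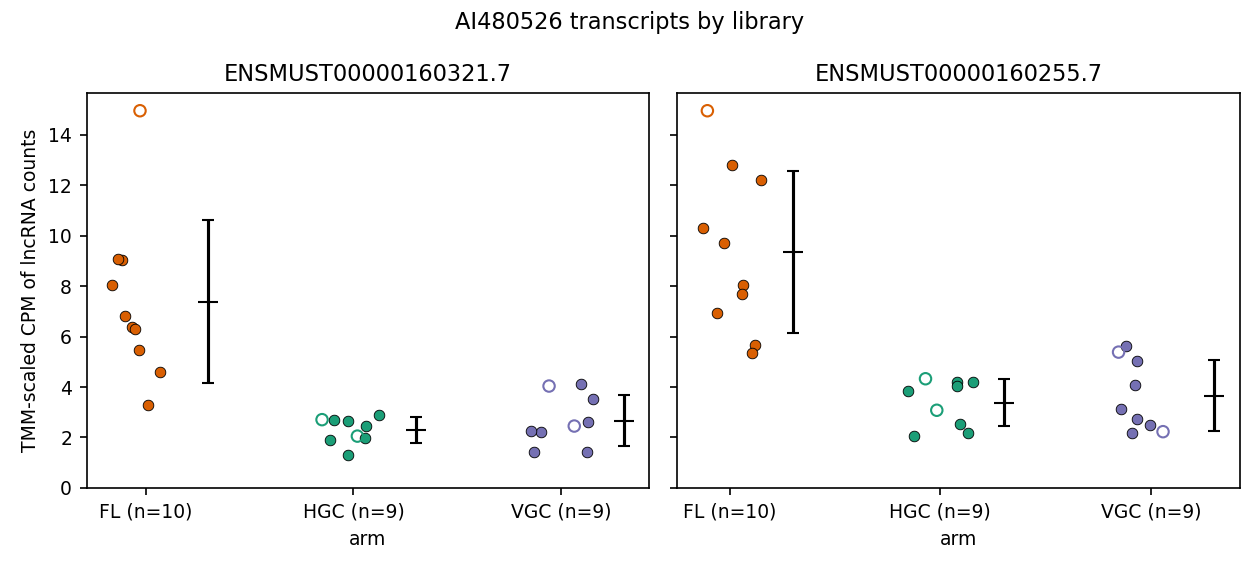
ENSMUST00000160321.7 and ENSMUST00000160255.7 (both AI480526) in counts per 1 M lncRNA counts after TMM, by arm. Points are libraries, open circles are those with r under 0.5 with the thymus profile, and bars are the mean ± SD. FL means are 7.39 and 9.36, and the ground means lie between 2.28 and 3.66.

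The difference against HGC passed on each of the 3 sets and that against VGC did not. Against HGC, ENSMUST00000160321.7 had 1.61 (adjusted p = 0.0194) without the listed pools, where 2 of 3409 (0.0587%) were called, and 1.498 (adjusted p = 0.00957) among the thymus-profile libraries. ENSMUST00000160255.7 had 1.54 (adjusted p = 0.0194) and 1.37 (adjusted p = 0.0155). Against VGC, ENSMUST00000160321.7 had 1.46 (adjusted p = 0.119) without the listed pools and 1.34 (adjusted p = 0.0375) among the thymus-profile libraries, and ENSMUST00000160255.7 had 1.37 (adjusted p = 0.119) and 1.21 (adjusted p = 0.0656). With sequencing plate as a term among the thymus-profile libraries, no call was left in either comparison. ENSMUST00000160321.7 then had 1.40 against HGC (adjusted p = 0.107) and 1.19 against VGC (adjusted p = 0.199).

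Single libraries decided some of these calls. Against HGC, ENSMUST00000160321.7 passed without any 1 of the 28 libraries, while ENSMUST00000160255.7 did not pass without HGC 13 (adjusted p = 0.0578) or HGC 16 (adjusted p = 0.0625). Against VGC, each of the 2 was lost in 10 of 28 omissions, those of FL 11 and 12, HGC 1 and 2 and VGC 1, 11, 12, 13, 14 and 16. The adjusted p rose to 0.11 for ENSMUST00000160321.7 without VGC 14 and to 0.115 for ENSMUST00000160255.7 without VGC 11. When 1 of the 23 thymus-profile libraries was left out, the call against HGC was lost in 2 omissions for ENSMUST00000160321.7 (HGC 13 and HGC 16) and in 4 for ENSMUST00000160255.7 (these and FL 5 and FL 11). Against VGC the 2 did not pass in 15 and 19 of these 23 omissions. With no filter on low counts neither passed in either comparison (ENSMUST00000160321.7 adjusted p = 0.144 against HGC and 0.134 against VGC). Of the other AI480526 transcripts, ENSMUST00000159637.7 had 1.15 (adjusted p = 0.248) and 0.79, and ENSMUST00000160099.1 had -0.73 against HGC.

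In LAR thymus the arms did not separate for this RNA. In counts per 1 M lncRNA counts, ENSMUST00000160321.7 was 1.94 to 6.84 in LAR FL (median 4.15), 1.45 to 10.2 in LAR HGC (median 5.01) and 2.39 to 8.77 in LAR VGC (median 4.49). These values were not tested against the TERM libraries.

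Among rRNA fragments, edgeR called 2 of 231 (0.866%) in FL against VGC, both higher in FL. They were Gm24647 (ENSMUST00000157112.1, log2 fold change 4.12, adjusted p = 0.012) and Gm25974 (ENSMUST00000158701.1, log2 fold change 3.28, adjusted p = 0.012). The difference lay in 3 FL libraries. Gm25974 had 141, 457 and 143 counts in FL 5, 11 and 12, and Gm24647 had 103, 267 and 166, where no other FL library had over 18 counts of either. None was called without the listed pools (adjusted p = 0.0972 for both), among the thymus-profile libraries (0.136 for both) or without FL 11. Against HGC edgeR called 0 of 231 (percent called 0), with 7 at an unadjusted p under 0.05 and 1 by DESeq2. Ribosomal fragments are near-identical across gene copies, so counts of single copies are uncertain. FL 5 and FL 11 shared the pool ISS13. In LAR thymus the highest count of Gm25974 was 267 in FL, 120 in HGC and 548 in VGC. That of Gm24647 was 221, 55 and 163 in the same order. These LAR counts were not tested.

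The other classes gave no call with edgeR in either flight comparison on all libraries. For tRNA fragments edgeR called 0 of 401 in FL against HGC and in FL against VGC (18 and 37 at an unadjusted p under 0.05, 0 and 0 by DESeq2). For snRNA fragments it called 0 of 792 (43 and 60, with 0 and 1 by DESeq2). For snoRNA fragments it called 0 of 749 (43 and 107, with 0 and 1 by DESeq2), and for piRNA fragments 0 of 664 (29 and 87, with 0 and 1 by DESeq2). The percent called was 0 in each. Single libraries moved the FL against VGC counts of snoRNA to 143 (without FL 1) and of piRNA to 29 (without VGC 2).

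Fragments of tRNA-Met-CAT-1-1 and tRNA-Met-CAT-1-2, a pair of identical copies, had the smallest p among tRNAs in FL against HGC, with a log2 fold change of 0.73 (adjusted p = 0.606). Without the listed pools 15 of 406 tRNAs (3.69%) passed in FL against HGC, 6 of them higher, and tRNA-Met-CAT-1-1 was at 0.94 (adjusted p = 0.0337). The 15 include both identical Met copies, so they overstate the number of separate tRNAs. That set still holds the library labelled HGC 14, whose tRNA share was 72.8%. tRNA-Met-CAT-1-1 was at 0.77 (adjusted p = 0.133) among the thymus-profile libraries, with 0 tRNAs called. Among snoRNAs, Gm25200 was at 3.23 against HGC and 3.92 against VGC, and Gm22851 at -3.46 and -3.70, with adjusted p of 0.507 and 0.139. Their values among the thymus-profile libraries were 3.01 and -3.88 against VGC (adjusted p = 0.0542 for both). Among piRNAs, piR-122342 was at 1.44 and 1.57 (adjusted p = 0.8 and 0.301).

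Old and young thymus differed in more miRNAs than any pair of arms did. The comparison of old with young mice over the 3 arms was added after the data were seen. On all 28 libraries edgeR called 13 of 818 miRNAs (1.59%), all higher in old mice. They included the heart miRNAs miR-499-3p (log2 fold change 7.14), miR-499-5p (5.64) and miR-208a-5p (4.75), and both libraries with a heart profile, those labelled HGC 11 and VGC 11, carried the label of 8 months. Without HGC 11 none of the 13 calls was left, and without FL 1 there were 49. Without the listed pools 25 of 805 (3.11%) were called, 21 of them higher.

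Among the 23 thymus-profile libraries (11 young, 12 old), 120 of 786 miRNAs (15.3%) were called, 61 higher and 59 lower in old mice. With the plate as a further term 77 were called, 42 higher and 35 lower. Leaving out 1 library gave from 91 (without VGC 2) to 136 calls (without FL 16). The set was chosen by the whole profile, and not by age. All levels in this age comparison, summed levels included, are CPM after TMM over the 28 libraries. As background for the counts below, 7.76% of all miRNAs tested were called higher and 7.51% lower in old mice. The smallest p belonged to miR-29b-2-5p, which was 8.17 to 17.1 CPM in young mice (median 11.5) and 12.0 to 34.5 CPM in old mice (median 22.0), a log2 fold change of 1.10 ± 0.189 (SE, adjusted p = 0.0032), and the next was miR-3076-5p at 1.77.

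The calls in this and the following paragraphs were made among the thymus-profile libraries unless another set is named. Several miRNAs of 2 small clusters were lower in old mice. Of miR-296 and miR-298, 4 of 4 strands tested were called lower, and of miR-290 to miR-295, 2 of 5. Both had 2 calls without the listed pools and 0 on all libraries. Of the imprinted Dlk1-Dio3 cluster 0 of 15 were called (median 0.16). miR-298-5p was 11.8 to 43.5 CPM in young mice (median 20.2) and 3.61 to 15.1 CPM in old mice (median 9.45), with a log2 fold change of -1.28 ± 0.243 (SE, adjusted p = 0.0032). miR-296-3p, its neighbour on chromosome 2, was 15.7 to 51.9 CPM in young mice (median 25.5) and 4.27 to 21.6 CPM in old mice (median 9.25), with -1.42 (adjusted p = 0.0043). The ages overlapped narrowly for both, and the highest old values of miR-296-3p lay in HGC. miR-293-3p and miR-295-3p, of a cluster known from embryonic stem cells, had medians of 7.41 and 5.98 CPM in young mice and 2.50 and 1.96 CPM in old mice (log2 fold changes -1.44 and -1.55).

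The largest group that was lower in old mice bore the names miR-466, miR-467, miR-669 and miR-297, most of which are copies of a repeat inside an intron of Sfmbt2. Of 73 tested, 37 were called lower and none higher, 72 had a negative value, and their median was -0.60 where the median of all tested was 0.04. Without the listed pools 0 of 74 were called and on all libraries 0 of 73 (medians -0.74 and -0.72). Among them miR-467e-5p had -0.91, miR-466p-5p -1.03 and miR-466o-5p -0.96. Their sequences are near-identical and they share reads, so the number of calls overstates the number of separate changes. This group, the 2 small clusters above, and the miR-378 family and the miR-193 and miR-365 group below were chosen after their values were seen and were given no test of their own.

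Of the miR-17 clusters, 6 miRNAs were called lower in old mice, 4 of them from miR-17-92. miR-18a-5p was 1496 to 3276 CPM in young mice (median 2227) and 824 to 2226 CPM in old mice (median 1239), with -0.72 (adjusted p = 0.0062). Of the 10 tested members of miR-17-92, 4 were called lower (miR-18a-5p, miR-19a-3p at -0.75, miR-19b-3p at -0.67 and miR-20a-5p at -0.64), none was called higher and none had a positive value. Of miR-106a-363, 1 of 6 was called lower, miR-18b-5p at -0.83, and of miR-106b-25, 1 of 6, miR-106b-5p at -0.50 (adjusted p = 0.0434), while miR-93-5p and miR-25-3p had adjusted p of 0.305 and 0.547. None of the 3 clusters had a call without the listed pools or on all libraries, where miR-18a-5p had adjusted p of 0.0759 and 0.27. The summed level of miR-17-92 was 17728 to 28274 CPM in young mice (median 22488) and 10395 to 24215 CPM in old mice (median 17002).

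Of 9 thymocyte and lymphoid miRNAs 1 was called, miR-142a-3p, lower at -0.68 (adjusted p = 0.0278). This count does not set the list apart from the 15.3% called over all miRNAs. miR-181a-5p was at 233235 CPM in young mice and 252256 CPM in old mice as medians, with a log2 fold change of 0.01 (adjusted p = 0.989). The summed level of the list was 208847 to 623052 CPM in young mice and 190955 to 477187 CPM in old mice, with medians of 304766 and 323128.

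Among the miRNAs called higher in old mice were 4 of the 6 fat miRNAs. miR-378a-3p, encoded inside Ppargc1b and active in energy metabolism, was 10349 to 23165 CPM in young mice (median 15012) and 12526 to 121476 CPM in old mice (median 37236), with 1.28 (adjusted p = 0.0055). The other three were miR-365-3p at 1.32, miR-193a-3p and miR-193b-3p, and the summed level of the 6 had a median of 15951 CPM in young mice and 39974 CPM in old mice. Of the miR-378 family 5 of 5 were called higher (median 1.03), with miR-378c at 1.03 and miR-378d at 1.09, and of the miR-193 and miR-365 group 7 of 10 (median 1.25). Without the listed pools the calls were 2 of 6 fat miRNAs, 0 of 5 of miR-378 and 5 of 10 of miR-193 and miR-365, and on all libraries 1, 2 and 0. miR-214-3p, a fibroblast miRNA, was 97.3 to 285 CPM in young mice (median 145) and 168 to 477 CPM in old mice (median 278), with 1.04 (adjusted p = 0.0055). Of 14 stromal and vascular miRNAs 2 were called, both higher, and 13 had a positive value (median 0.46).

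Further calls fell among miRNAs that mark blood, liver and muscle. Of the erythroid miRNAs 2 of 5 were called higher, miR-486a-5p and miR-486b-5p, while miR-451a had 0.76 (adjusted p = 0.0961). Of 4 miR-486 strands tested, a family chosen after its values were seen, 4 were called higher here. Without the listed pools 4 were called higher, and on all libraries 2. The summed level of the 5 was 7227 to 39516 CPM in young mice and 7752 to 46230 CPM in old mice. Both liver miRNAs were called higher, miR-122-5p at 2.93 and miR-122-3p at 2.38, and HGC 16 and VGC 14, the libraries with most miR-122-5p, were old. On the other sets neither was called. Of 7 muscle and heart miRNAs 1 was called higher, miR-208a-3p, a count that does not set the list apart from the 7.76% called higher over all miRNAs. The part of fat, blood, liver and muscle left on the dissected thymus in these differences was not tested.

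**Figure D4:**
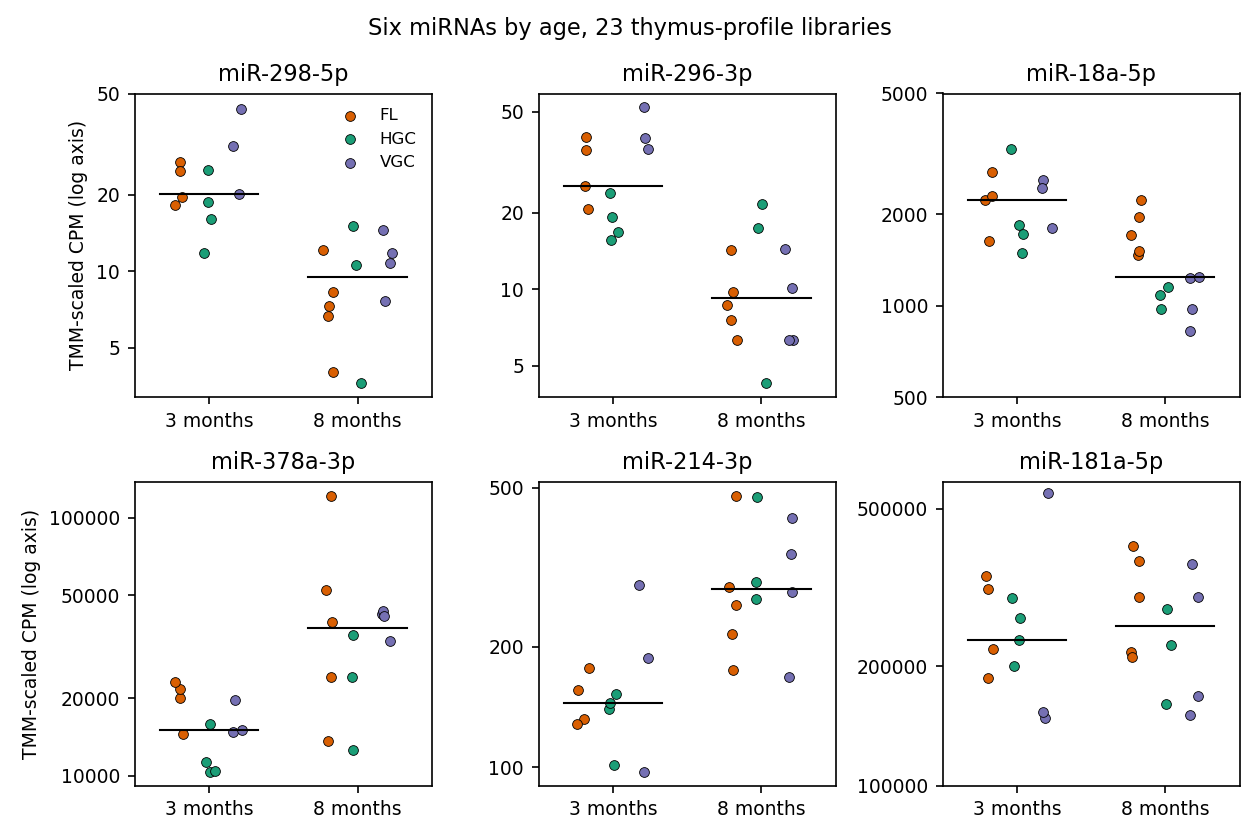
Levels of miR-298-5p, miR-296-3p, miR-18a-5p, miR-378a-3p, miR-214-3p and miR-181a-5p in CPM after TMM on a log axis, at 3 and 8 months, in the 23 thymus-profile libraries. Points are libraries coloured by arm and black lines are medians. The first 3 are lower at 8 months, miR-378a-3p and miR-214-3p are higher, and miR-181a-5p has medians of 233235 and 252256 CPM.

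Within single arms the number of age calls depended on single libraries, and the difference between FL and HGC did not pass a test. Among the thymus-profile libraries, 24 of 786 (3.05%) were called between ages in HGC, 40 (5.09%) in VGC and 0 in FL. Leaving out 1 library gave 17 calls in FL (without FL 16) and 2 (without HGC 13). In HGC it gave 0 without HGC 1 or HGC 16, 13 without HGC 3 or HGC 5, 14 without HGC 12 and 40 without HGC 2. In VGC it gave 9 without VGC 14, 15 without VGC 1, 18 without VGC 3, 26 without VGC 12, and 61, 78 and 65 without FL 3, FL 11 and FL 16. Of the 24 in HGC, 22 had the same sign in VGC and 20 in FL, and of the 40 in VGC, 36 had the same sign in FL. The interaction of flight and age in FL and HGC was called for 0 of 786. On all 28 libraries it was called for 0 of 818 (121 at an unadjusted p under 0.05), and age was called for 1 (0.122%) in HGC, miR-483-5p at 6.99 (adjusted p = 0.046), and for 0 in FL and VGC (64 and 116 at an unadjusted p under 0.05). FL against HGC was called for 0 miRNAs at 3 months and for 0 at 8 months (43 and 151 at an unadjusted p under 0.05). DESeq2 was not run on the age comparisons.

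For miR-20b-5p the interaction of flight and age did not pass the test (0.62 ± 0.347 among the thymus-profile libraries, adjusted p = 0.349). Its FL against HGC difference was 0.35 ± 0.24 at 3 months (adjusted p = 0.774) and 0.96 ± 0.257 at 8 months (adjusted p = 0.115). In young mice its median was 3659 CPM in FL, 2799 CPM in HGC and 3641 CPM in VGC. In old mice it was 3639 CPM in FL (3031 to 4155), 1733 CPM in HGC (1662 to 2007) and 2038 CPM in VGC (1749 to 2569). All 5 old FL libraries were above all 3 old HGC and all 4 old VGC libraries, and the young arms overlapped.

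The last question was whether the flight differences on orbit were those seen after live return. TERM and LAR differ in landing and the days after it, and also in time in space, anesthesia and freezing, so the reason for a difference cannot be told apart. On all 58 thymus libraries the FL against HGC difference differed between TERM and LAR for 2 of 819 miRNAs (0.244%), miR-122-5p (-7.34, adjusted p = 0.014) and miR-122-3p (-5.99, adjusted p = 0.027), and without HGC 16 for none. For FL against VGC it was 0 of 819, with 99 at an unadjusted p under 0.05. DESeq2 was not run on this comparison.

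Among the thymus-profile libraries, which left 8 FL, 10 HGC and 8 VGC of LAR, the difference was called for 7 of 822 (0.852%) against HGC and for 74 (9.0%) against VGC. Of the 7, 3 were more positive in TERM, miR-20b-5p (1.86 ± 0.438, adjusted p = 0.025), miR-17-5p (1.29 ± 0.315, adjusted p = 0.0278) and miR-106a-5p (1.64, adjusted p = 0.028), and all 3 carry the seed AAAGUGC shown above. Of the 74, 20 were more positive in TERM, among them miR-17-5p (1.62 ± 0.323, adjusted p = 0.00313) and miR-20b-5p (2.04 ± 0.448, adjusted p = 0.0038). Of the miR-106a-363 cluster 2 of 6 were called against HGC and 3 of 6 against VGC, all more positive in TERM, and of miR-17-92 1 of 10 and 5 of 10. Over all 822, 0.365% and 2.43% were called more positive in TERM.

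The arms stood in another order in LAR than in TERM. Levels in this comparison are CPM after TMM over the 58 libraries and differ from the plain CPM given above. miR-20b-5p was 3216 to 4519 CPM in TERM FL (median 4060), against 1741 to 4814 in TERM HGC (median 2348) and 1944 to 4719 in TERM VGC (median 2697). In LAR it was 379 to 1229 CPM in FL (median 579), against 378 to 3459 in HGC (median 1513) and 1148 to 2982 in VGC (median 2007). FL was thus the highest arm by median in TERM and the lowest in LAR. In the fit over both groups the LAR difference was -1.20 against HGC (adjusted p = 0.026) and -1.55 against VGC (adjusted p = 0.00299), while the TERM difference was 0.67 (adjusted p = 0.563) and 0.49 (adjusted p = 0.57). miR-17-5p had medians of 7938, 5231 and 5416 CPM in TERM FL, HGC and VGC, and of 2554, 4154 and 5649 CPM in LAR. Among the 10 LAR HGC libraries, the summed level of the epithelial miRNAs ran from 1100 to 41783 CPM (median 31417). That of the myeloid miRNAs ran from 422 to 6576 CPM (median 734). Whether a library of another tissue was among them was not tested beyond the cut at r of 0.5.

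**Figure D5:**
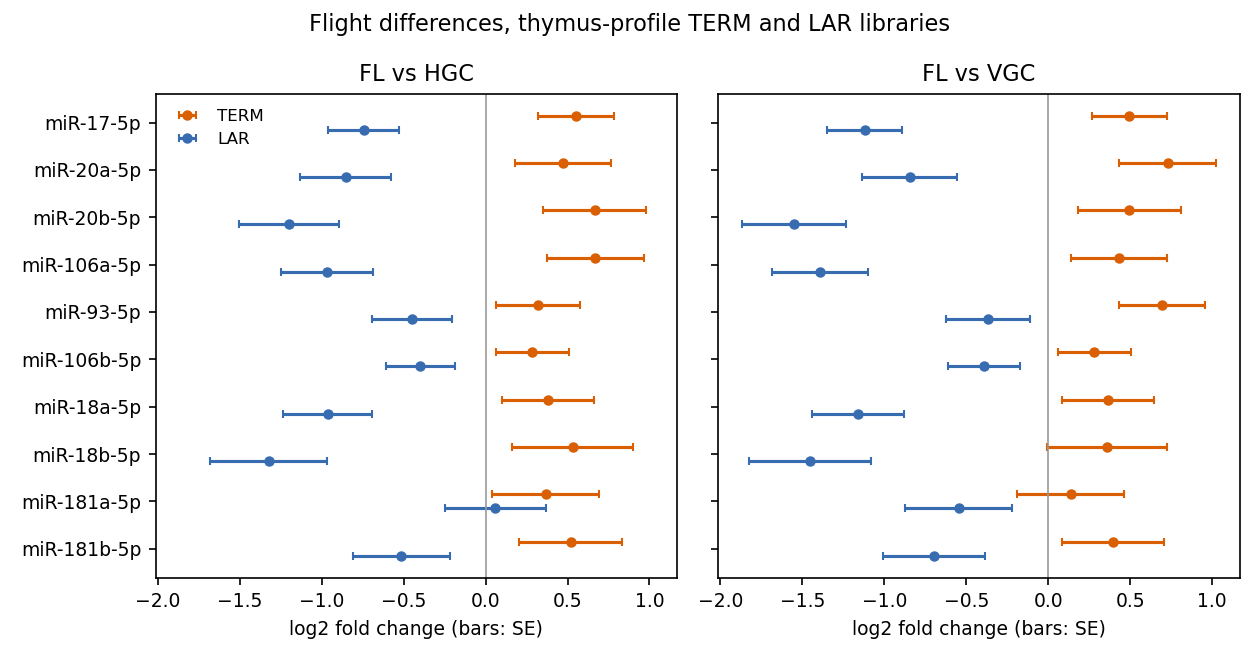
Log2 fold change ± SE of FL against HGC and FL against VGC in TERM and LAR thymus-profile libraries, for 10 miRNAs of the miR-17 clusters and the miR-181 family, from 1 edgeR fit. For miR-20b-5p the values are 0.67 and 0.49 in TERM and -1.20 and -1.55 in LAR.

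Of the 74, 54 were more negative in TERM than in LAR. They were 6.57% of the 822 tested. They included 5 of 7 muscle and heart miRNAs and 6 of 15 Dlk1-Dio3 members such as miR-127-3p (-2.06). The summed level of the muscle and heart miRNAs was 5162 to 37759 CPM in LAR FL (median 29269), against medians of 9333 CPM in LAR HGC and 4911 CPM in LAR VGC, and 2977, 2060 and 8977 CPM in TERM FL, HGC and VGC. The LAR FL thymus libraries thus carried more muscle miRNA than any other group by median, and the part of this in the differences above was not tested. Without single libraries the count of 7 went from 0 (without LAR FL 1) to 12 (without LAR FL 5), and the count of 74 from 23 (without TERM VGC 16) to 95 (without LAR FL 5).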

How the data were processed

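Small RNA-seq was analysed from the tables of 7 RNA classes that the authors deposited. Per the labels, reads were mapped to GRCm39. The miRNA values are the expected counts that the authors' pipeline (miRMaster, miRBase) gave, of which 0.79% were not whole, and they were rounded. The other 6 classes are counts per feature, as the authors deposited them, not normalized and without molecular identifiers. A read can count for several features, so totals exceed reads.

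Features with at least 5 counts in at least 10% of the libraries were tested per class in 1 fit with edgeR 4.0.16 (TMM, quasi-likelihood test, Benjamini-Hochberg, adjusted p under 0.05, R 4.3.3). DESeq2 1.42.0 was an alternative. Class shares were compared by exact two-sided permutation (92378 assignments for FL against each ground arm, 48620 for HGC against VGC; scipy 1.17.1). The fits were tested on simulated data. Named were the markers, the 10 most abundant miRNAs, the features with the smallest p per comparison (10 miRNAs, 5 of each other class), members of gene lists, and miRNAs the study names for thymus. The members and lists were chosen with earlier results of these data known. The chi-square per degree of freedom between any 2 of the 28 libraries was at least 188, so all were counted as separate. Replicates are separate mice. Tables of the authors' own comparisons were not used. The set of thymus-profile libraries, age over the arms, and fits with plate or age as a term were added after the data were seen.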

Additional observations from a re-analysis of the deposited data

Results flagged for a closer look

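Groups of 4 to 10 libraries were searched for a single library far from the others in 57 groups, where chance flags about 1 in 20. The library labelled FL 1 was the lowest FL library for miR-20b-5p (10.13 on the scale of log2 CPM after TMM, used throughout here), miR-106a-5p (9.12), miR-17-5p (10.76), miR-20a-5p (10.02) and miR-18b-5p (0.69), and the highest for miR-206-3p (12.72). Its correlation with the thymus profile was 0.217.

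Among ground libraries, the highest HGC share of counts on miRNA was 17.3% and on piRNA 2.64%, and the highest HGC level of miR-206-3p was 9.83 (log2 CPM). The lowest VGC level of miR-20b-5p was 2.57 (log2 CPM), and the highest VGC level of the rRNA fragment Gm25974 (ENSMUST00000158701.1) was 1.82 (log2 CPM).

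The FL against HGC difference differed between TERM and LAR, by a test of the difference itself, for 2 miRNAs on 58 libraries, miR-122-5p (-7.34) and miR-122-3p (-5.99, both log2), and for 7 among the thymus-profile libraries. The FL against VGC difference differed for 74 among the thymus-profile libraries.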

How the results depend on the processing

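Counts below are features called, in the order FL against HGC and FL against VGC unless said. With DESeq2, lncRNAs gave 4 and 8, rRNA 1 in FL against HGC, snRNA, snoRNA and piRNA 1 each in FL against VGC, and miRNAs 3 in FL against VGC and 2 in HGC against VGC. With no filter on low counts, lncRNAs gave 0 and 0, rRNA 3 and 5, piRNA 15, 24 and 1 (the last HGC against VGC), age in HGC 13, the interaction 7 and the TERM minus LAR difference against HGC 4. With RLE size factors, age over arms gave 7, or 122 among the thymus-profile libraries. The deviations of same-numbered mice had a median r of -0.03 for FL and HGC and -0.05 for FL and VGC. For HGC and VGC it was 0.37 (-0.35 to 0.92) against 0.05 for other pairs, and 0.19 against -0.01 among the thymus-profile libraries. Not every pair was above 0.1 in any of the 3, so the numbers were not taken to pair the libraries. With the mouse number as a replicate block, lncRNAs gave 1 and 0, rRNA 0 and piRNA 2 in FL against VGC, and among the thymus-profile libraries the block gave 0 and 0 for lncRNAs and 0 for rRNA.

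Without the listed pools, tRNA gave 15 in FL against HGC, lncRNA and rRNA 0 in FL against VGC, age 27 in HGC, 5 in VGC and 25 over arms, TERM minus LAR 16 and 11, and the fold rule 24 in FL against HGC and 12 in HGC against VGC. The fold rule gave 4, 10 and 1 with a pseudocount of 10 rpmm and 5 in FL against HGC and 17 in HGC against VGC per 1 M miRNA counts. Without libraries closest to another tissue, lncRNA and rRNA gave 0 in FL against VGC. Among the thymus-profile libraries, lncRNA gave 1 and rRNA 0 in FL against VGC, the fold rule 26 in HGC against VGC, age 24 in HGC, 40 in VGC and 120 over arms, and TERM minus LAR 7 and 74. With an age term there, FL against VGC gave 4 lncRNAs, 3 piRNAs and 0 rRNAs. With a plate term there, miRNA gave 1 in FL against HGC (miR-1839-3p), snRNA 1 in HGC against VGC, lncRNA 0 and 0, rRNA 0 in FL against VGC, and age 77.

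Leaving out 1 library at a time, on all or on thymus-profile libraries, gave lncRNA 0 to 3 and 0 to 10, rRNA 0 to 3 and 0 to 5, miRNA in FL against VGC 0 to 1, piRNA in FL against VGC 0 to 83 (most without VGC 2) and in HGC against VGC 0 to 4, snoRNA in FL against VGC 0 to 182 (most without VGC 12) and in HGC against VGC 0 to 109 (most without HGC 1), and snRNA in HGC against VGC 0 to 1. Age gave 0 to 17 in FL, 0 to 40 in HGC, 0 to 78 in VGC and 0 to 136 over arms, the interaction 0 to 2, TERM minus LAR 0 to 12 and 0 to 95, the fold rule 2 to 21, 15 to 41 and, in HGC against VGC, 4 to 16, and the rRNA share difference of FL against VGC -7.23 to -4.51 points. The cause of these changes was not tested beyond the removal of libraries itself. Low counts of AI480526 and 5 libraries of doubtful tissue limit the arm comparisons.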
